A study of Mus musculus with 30 samples.

Results

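A group of 9 genes best known from neurons or glia was followed through 5 sorted populations of splenic phagocytes: Gfra2, Slc1a3, Kcnj10, Sema6d, Epb41l3, Scamp5, Nos1, Negr1 and Gria3. They are 9 of the 37991 gene identifiers in the count table, and were picked by name with their levels in these same libraries already known. In the table and the GENCODE M21 annotation they are Gfra2 (ENSMUSG00000022103, chromosome 14), Slc1a3 (ENSMUSG00000005360, chromosome 15), Kcnj10 (ENSMUSG00000044708, chromosome 1), Sema6d (ENSMUSG00000027200, chromosome 2), Epb41l3 (ENSMUSG00000024044, chromosome 17), Scamp5 (ENSMUSG00000040722, chromosome 9), Nos1 (ENSMUSG00000029361, chromosome 5), Negr1 (ENSMUSG00000040037, chromosome 3) and Gria3 (ENSMUSG00000001986, chromosome X). Their differences between cell populations are given as values with no test. The libraries came from spleens of 12 female mice aged 9.4 to 15.7 weeks, 6 of the transgenic TLR7.1 line, which has excess Tlr7, a sensor of RNA in endosomes, and 6 wild-type (WT) B6 mice. Each TLR7.1 mouse gave inflammatory hemophagocytes (iHPC), phagocytes that take up blood cells, sorted as Ly6C- CD31hi VCAMlow F4/80low CD11b+. Mice of both genotypes gave red pulp macrophages (RPM), which clear aged red cells, sorted as VCAMhi F4/80+ cells with low CD31, no Ly6C and CD11b at most intermediate. They also gave Ly6C-high monocytes (Mono), sorted as Ly6C+ Ccr2+ CD11b+. All gates also required live CD45.2+ cells without SiglecF or Ly6G. The groups are TLR7.1 iHPC, TLR7.1 RPM, TLR7.1 Mono, WT RPM and WT Mono, with 6 libraries of 500 sorted cells in each and no WT iHPC analysed here.

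In the nervous system these genes serve signalling at and around synapses. Gfra2 encodes the receptor for the growth factor neurturin, which signals with the kinase Ret. Slc1a3 encodes the glutamate transporter GLAST and Kcnj10 the potassium channel Kir4.1, both used by astrocytes to clear what active neurons release. Sema6d is a membrane-bound guidance cue that binds Plxna1, Epb41l3 links membrane proteins to the actin skeleton, and Scamp5 is a secretory vesicle membrane protein. Nos1 makes nitric oxide in neurons, Negr1 is a cell adhesion molecule of the IgLON family, and Gria3 is a subunit of AMPA-type glutamate receptors. RPM are the resident macrophages of the splenic red pulp, depend on the transcription factor Spic, and recycle iron from the red cells they engulf.

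Promoter sequences, 250 bases before to 50 after the annotated start, were found for 7 of the 9 genes in RefSeq on build GRCm38.p6. The 3 below are shown because they stand for the opposite patterns among the 9 genes, a channel and a vesicle protein highest in RPM and an adhesion molecule highest in iHPC. Capitals mark CG dinucleotides, the sites of DNA methylation in mammals.
Kcnj10, chr1:172340960-172341259, plus strand: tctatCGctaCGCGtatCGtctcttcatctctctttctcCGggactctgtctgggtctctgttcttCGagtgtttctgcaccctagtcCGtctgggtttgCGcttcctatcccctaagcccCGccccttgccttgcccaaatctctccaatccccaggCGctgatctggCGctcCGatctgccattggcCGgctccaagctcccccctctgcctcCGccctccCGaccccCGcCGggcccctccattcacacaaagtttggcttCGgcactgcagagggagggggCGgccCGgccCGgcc
Scamp5, chr9:57468011-57468310, minus strand: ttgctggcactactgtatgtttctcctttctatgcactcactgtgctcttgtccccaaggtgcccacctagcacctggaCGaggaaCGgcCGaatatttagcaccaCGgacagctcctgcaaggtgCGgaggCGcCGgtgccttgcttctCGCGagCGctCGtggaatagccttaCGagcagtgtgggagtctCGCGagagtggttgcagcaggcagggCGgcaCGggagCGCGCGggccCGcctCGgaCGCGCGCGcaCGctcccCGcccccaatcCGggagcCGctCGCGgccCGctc
Negr1, chr3:156561544-156561843, plus strand: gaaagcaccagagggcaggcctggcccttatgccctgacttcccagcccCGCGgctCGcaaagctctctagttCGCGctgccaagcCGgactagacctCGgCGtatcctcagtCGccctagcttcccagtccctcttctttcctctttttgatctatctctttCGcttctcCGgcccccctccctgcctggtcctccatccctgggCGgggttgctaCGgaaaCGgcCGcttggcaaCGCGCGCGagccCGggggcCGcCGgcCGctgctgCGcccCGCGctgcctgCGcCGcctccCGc
The Kcnj10 promoter held 21 CG dinucleotides, that of Scamp5 32 and that of Negr1 29, against a median of 7 over 32841 promoters of the same length. These 3 were the highest among the 7 genes. Of all those promoters 75.2% held fewer CG dinucleotides than that of Kcnj10, 90.5% fewer than that of Scamp5 and 87.1% fewer than that of Negr1. The Slc1a3 promoter held 3 and that of Nos1 6. Sema6d promoters held 14 and 6, and Epb41l3 promoters 16, 18 and 2. All promoters found for the 7 genes were searched on both strands for motifs known from macrophage genes and for the TATA box. The letters were the PU.1 core GAGGAAGT, found in 3.20% of all promoters, the AP-1 site TGANTCA, found in 7.81%, the interferon-stimulated response element, found in 3.44%, the MARE core TGCTGAC, found in 4.67%, and the TATA box TATAAA, found in 13.6%. The 3 printed promoters held none of these letter strings. Among the others the only match was a TATA box in the Slc1a3 promoter, on the opposite strand at -161 to -156 from the annotated start. That RefSeq start of Slc1a3 matched no GENCODE transcript start, so its promoter values are uncertain.

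Library totals ran from 95002 to 1932427 counts, and group medians were 1112665 in TLR7.1 iHPC, 820242 in TLR7.1 RPM, 1656511.5 in TLR7.1 Mono, 544757 in WT RPM and 1584430 in WT Mono. Levels are CPM, read counts scaled to a common library size by the trimmed-mean method. Tlr7, the gene the line overexpresses, ran from 496.8 to 1531 CPM over the 18 TLR7.1 libraries, against 107 to 384 CPM over the 12 WT libraries, with no overlap. The summed level of 9 RPM markers was 2074 to 3016 CPM in TLR7.1 iHPC, 7982 to 17120 in TLR7.1 RPM, 696 to 876 in TLR7.1 Mono, 10100 to 18330 in WT RPM and 679 to 957 in WT Mono. The 6 Ly6C-high monocyte markers summed to at least 3743 CPM in every Mono library and to at most 158 CPM in every other library. All 9 genes passed the filter on low counts, which left 11030 genes for the fit. A gene could pass through its high group alone.

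A set of 6 genes, Gfra2, Slc1a3, Kcnj10, Sema6d, Epb41l3 and Scamp5, was high in RPM of both genotypes. For each of them, all RPM libraries lay above all Mono libraries of the same genotype. In WT mice Nos1 did so too, which makes 7 of 9 genes, and 11.1% of the 11030 genes lay wholly above in that comparison. In TLR7.1 mice it was 6 of 9 genes against a background of 12.6%. Since the genes were chosen with these differences in view, nothing is read from the counts. Per kilobase of exon, mean levels in WT RPM were 105 CPM for Gfra2, 72.6 for Kcnj10, 41.2 for Slc1a3, 33.1 for Sema6d, 32.2 for Epb41l3, 29.2 for Scamp5 and 2.99 for Nos1. Gfra2 was thus the highest of the 7 by this length-corrected mean and Nos1 the lowest.

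**Figure D1:**
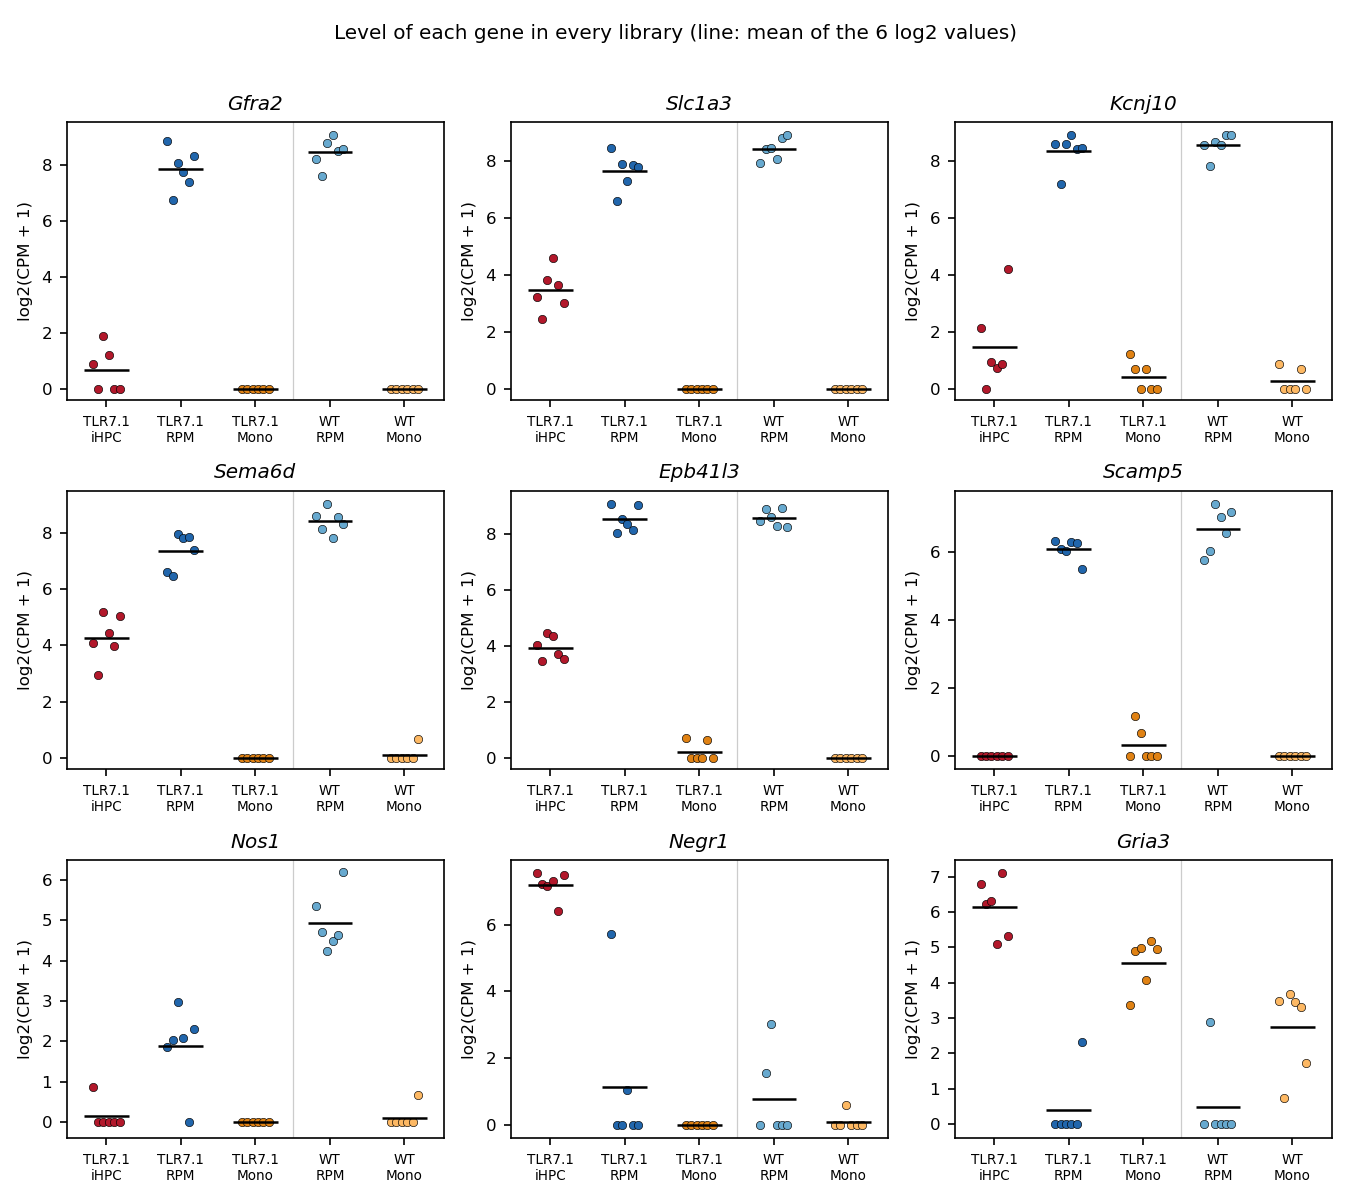
Level of the 9 genes in each of the 30 libraries, as log2 of CPM plus 1, in TLR7.1 iHPC, TLR7.1 RPM, TLR7.1 Mono, WT RPM and WT Mono. Points are single libraries and lines the mean of the 6 log2 values. The first 6 panels are high in both RPM groups and near 0 in both Mono groups. Nos1 is highest in WT RPM and Negr1 in TLR7.1 iHPC. Gria3 is highest in TLR7.1 iHPC, followed by TLR7.1 Mono and then WT Mono, where it is low and overlaps WT RPM.

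Gfra2, the neurturin receptor, had a lowest, median and highest level of 107, 243 and 466 CPM in TLR7.1 RPM, against 0 CPM in all 6 TLR7.1 Mono libraries. In WT RPM the corresponding levels were 194, 373 and 546 CPM, against 0 in all 6 WT Mono libraries. With a floor of 3 counts over a Mono group, the pooled level was at least 652-fold higher in TLR7.1 RPM than in TLR7.1 Mono and at least 907-fold higher in WT RPM than in WT Mono. TLR7.1 iHPC held 6 Gfra2 counts in all, in 3 of 6 libraries, with a highest level of 2.78 CPM.

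Slc1a3, the glutamate transporter, had 95.3, 224 and 344 CPM as lowest, median and highest level in TLR7.1 RPM, and 239, 340 and 479 CPM in WT RPM. All 12 Mono libraries held 0 counts. TLR7.1 iHPC libraries lay between, at 4.44, 9.94 and 22.8 CPM, and overlapped neither TLR7.1 RPM nor TLR7.1 Mono. Kcnj10, the potassium channel, had 146, 371 and 485 CPM in TLR7.1 RPM and 229, 391 and 486 CPM in WT RPM. Mono libraries held 4 Kcnj10 counts in TLR7.1 mice and 2 in WT mice over 6 libraries each, so the pooled ratio of RPM to Mono was 759 in TLR7.1 mice (95% counting interval 296 to 2790). In TLR7.1 iHPC Kcnj10 had 12 counts, and its highest level, 17.6 CPM, rested on 5 counts in the shallowest library of the group.

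Sema6d, the guidance cue, had a lowest, median and highest level of 86.0, 194 and 247 CPM in TLR7.1 RPM and of 225, 346 and 519 CPM in WT RPM. Among the 12 Mono libraries 1 held a single count. Epb41l3, the actin linker, had 259, 344 and 536 CPM in TLR7.1 RPM and 298, 371 and 478 CPM in WT RPM. It had 2 counts over the TLR7.1 Mono libraries and 0 over the WT Mono libraries. Scamp5, the vesicle protein, had 43.9, 70.7 and 78.1 CPM in TLR7.1 RPM and 53.3, 110.0 and 169 CPM in WT RPM, with 3 counts over TLR7.1 Mono and 0 over WT Mono. All 3 genes separated RPM from Mono completely in both genotypes.

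Set against the RPM of the same mice, iHPC had these genes at very different levels. All 6 were lower in iHPC with no overlap of libraries, where 5.09% of all genes lay wholly below. The iHPC level as a percent of the RPM level of the same mouse had a median of 11.8% for Sema6d (range 6.43 to 19.4), 4.83% for Slc1a3 (2.45 to 14.6) and 4.12% for Epb41l3 (2.05 to 6.01). It was 0.239% for Kcnj10 (0 to 4.96), 0.0904% for Gfra2 (0 to 1.03) and 0% for Scamp5 in all 6 mice. The pooled ratios were 8.92-fold lower in iHPC for Sema6d (95% counting interval 7.36 to 10.9), 14.7-fold for Slc1a3 (11.7 to 18.8), 21.1-fold for Epb41l3 (17.2 to 26.1), 168-fold for Kcnj10 (95.95 to 326) and 217-fold for Gfra2 (99.1 to 592). Scamp5, with 0 counts in iHPC, was at least 143-fold lower. These intervals cover counting error only.

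The same percent was computed for genes that define RPM, to place these values. Vcam1, which the gate selects on, had a median of 1.32% (range 0.558 to 1.49), Slc40a1, the iron exporter, 2.72% (0.302 to 5.01), Mrc1, the mannose receptor, 0.161% (0 to 2.69) and Cd163, the haptoglobin-hemoglobin receptor, 0% (0 to 1.799). Hmox1, the heme-degrading enzyme, had 19.3% (13.6 to 40.2), and Spic, the transcription factor of RPM, 61.1% (45.6 to 85.7). Adgre1, the F4/80 antigen, had 49.6% (37.0 to 69.8), C1qa, a subunit of complement C1q, 49.1% (17.4 to 87.7) and Cd5l, a secreted macrophage protein, 20.9% (15.5 to 44.9). The markers thus spread widely. The Sema6d percents lay above the ranges of Vcam1, Slc40a1, Mrc1 and Cd163, below those of Adgre1 and Spic, and overlapped those of Hmox1, Cd5l and C1qa. Those of Epb41l3, Kcnj10, Gfra2 and Scamp5 lay below the ranges of Hmox1, Spic, Adgre1, C1qa and Cd5l in all 6 mice, and the highest Slc1a3 percent, 14.6%, lay within that of Hmox1. A bulk library of sorted cells does not tell fewer RNA-bearing cells from less RNA in each cell.

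**Figure D2:**
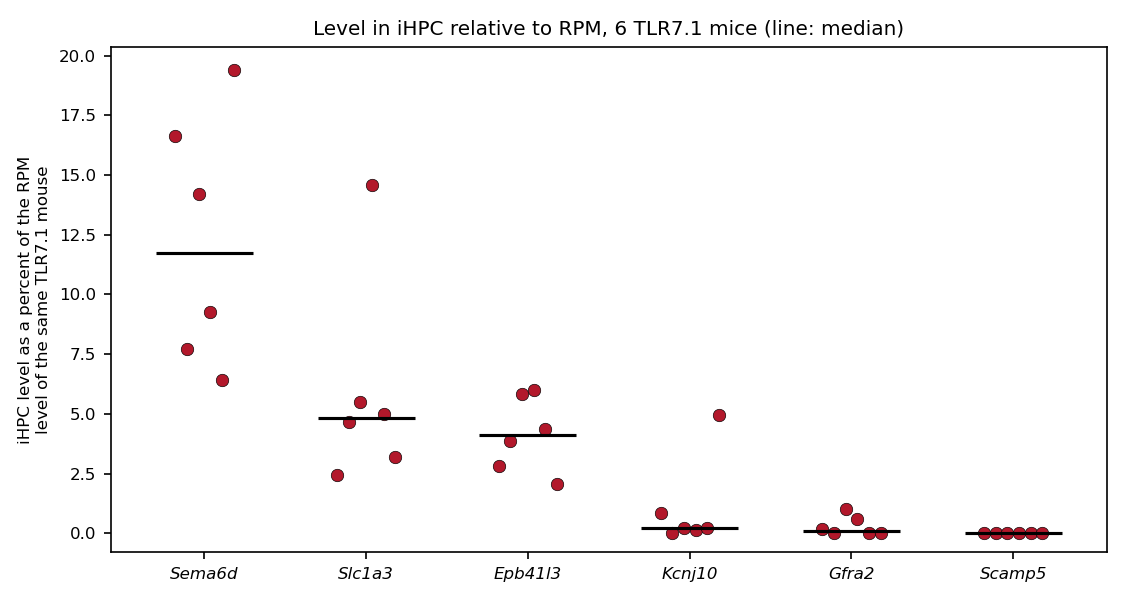
Level in TLR7.1 iHPC as a percent of the level in TLR7.1 RPM of the same mouse, for 6 RPM genes. Points are the 6 mice and lines the medians, which run from 11.8% for Sema6d to 0% for Scamp5.

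Compared with TLR7.1 Mono, 4 of the 9 genes were higher in TLR7.1 iHPC with no overlap, Slc1a3, Sema6d, Epb41l3 and Negr1, and 14.2% of all genes were. Slc1a3 was at least 39.1-fold and Sema6d at least 60.7-fold higher in iHPC by pooled level, and Epb41l3 was 73.0-fold higher (95% counting interval 19.7 to 611). These 3 genes had reads in all 6 iHPC libraries, at 78, 121 and 97 counts in total, and in at most 2 of 6 TLR7.1 Mono libraries. By the fit all 9 genes were at least 2-fold apart in iHPC against Mono, as were 34.4% of all genes, but Gfra2, Nos1 and Scamp5 had 6 or fewer counts over both groups together.

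Between genotypes, the comparison in RPM asks how a resident macrophage differs with excess Tlr7. All 6 RPM genes had lower means in TLR7.1 RPM, and 1 passed the test, which 8.25% of all genes passed in either direction and 3.77% as lower. Sema6d averaged 174 ± 70.4 CPM in TLR7.1 RPM and 349 ± 102 CPM in WT RPM (SD, n = 6 each). Its log2 difference was -1.01 ± 0.29 (SE), with an adjusted p of 0.0296 by edgeR's quasi-likelihood test over 11030 genes. Of the 6 TLR7.1 RPM libraries 2 lay above the lowest WT RPM library, at 247 and 229 CPM against 225 CPM in that WT library, a level that rests on 21 counts in the shallowest of all libraries. The call also passed with DESeq2 (adjusted p = 0.0180) and with collection date as a covariate (adjusted p = 0.0154). It was lost when any 1 of 6 mice was left out, numbers 24028, 24068, 24107, 24214, 24415 and 24416, with log2 differences of -0.86 to -1.01 and adjusted p of 0.0502 to 0.103. Within collection dates Sema6d was lower in TLR7.1 RPM on 13 December, at 91.2 CPM against 330 CPM in WT RPM, and on 26 December, at 205 CPM against 403.5 CPM in WT RPM, while on 21 December 2 TLR7.1 mice averaged 226 CPM against 225 CPM in 1 WT mouse.

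Markers of other cells moved with genotype in these sorts. The 9 RPM markers summed to a median of 11750 CPM in TLR7.1 RPM, against 15110 CPM in WT RPM. Plasma cell markers, 4 measured genes led by Jchain, summed to 112 to 1901 CPM in TLR7.1 RPM with a median of 1782, against 5.98 to 996 CPM in WT RPM with a median of 28.3. T and NK cell markers reached 1253 CPM in the TLR7.1 RPM library of mouse 24107, against at most 248 CPM in WT RPM. That library also had the lowest RPM marker sum and the lowest Sema6d. The next lowest Sema6d of TLR7.1 RPM, 96.4 CPM in mouse 24068, came with RPM markers at 15390 CPM and T and NK markers at 39.1 CPM. The highest RPM marker sum of the group, 17120 CPM in mouse 24380, came with Sema6d at 163.5 CPM. Plasma cell markers summed to 1897 CPM in the library of mouse 24107, 1901 CPM in that of 24068 and 112 CPM in that of 24380. Expressed per 1000 CPM of RPM markers, Sema6d averaged 14.8 ± 6.68 in TLR7.1 RPM and 24.5 ± 8.69 in WT RPM (SD, n = 6 each), a log2 difference of -0.79 with p = 0.0541 in an exact two-sided permutation test over 924 arrangements. The part of these cells in the Sema6d difference was not tested further.

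The other RPM genes did not pass edgeR's test between genotypes. Slc1a3 averaged 213 ± 83.6 CPM in TLR7.1 RPM and 351 ± 94.3 CPM in WT RPM (SD, n = 6 each), a log2 difference of -0.74 ± 0.29 with an adjusted p of 0.117 in edgeR. Limma-voom with mouse as a random block, which changes the method and the block together, called it (-0.95, adjusted p = 0.00216). Gfra2 had a log2 difference of -0.52 ± 0.31 (adjusted p = 0.343), and Scamp5 of -0.66 ± 0.38 (adjusted p = 0.321). Kcnj10 and Epb41l3 differed least, with log2 differences of -0.16 ± 0.29 (adjusted p = 0.793) and -0.05 ± 0.21 (adjusted p = 0.933). Kcnj10 averaged 350.4 ± 112 CPM in TLR7.1 RPM and 393 ± 94.6 CPM in WT RPM, and Epb41l3 379.5 ± 119 CPM in TLR7.1 RPM and 384 ± 78.8 CPM in WT RPM. Within a date, Scamp5 was higher in both TLR7.1 RPM libraries of 13 December, at a mean of 72.4 CPM against 58.8 CPM in WT RPM, and lower in those of 21 and 26 December.

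Nos1, the neuronal nitric oxide synthase, is described without a test, because it has rank 5 among the largest falls of this comparison and may have been picked for that. It had 0, 3.16 and 6.87 CPM as lowest, median and highest level in TLR7.1 RPM, against 18.01, 24.5 and 71.7 CPM in WT RPM. All TLR7.1 RPM libraries lay below all WT RPM libraries, as did 0.644% of all genes. The totals were 14 counts in TLR7.1 RPM and 111 in WT RPM, and the pooled level was 9.83-fold lower in TLR7.1 RPM (95% counting interval 5.62 to 18.6). Means were lower in TLR7.1 RPM on each date, at 2.85 CPM against 32.3 CPM in WT RPM on 13 December, 1.61 CPM against 21.4 CPM in WT RPM on 21 December and 5.43 CPM against 37.9 CPM in WT RPM on 26 December. Relative to the RPM markers, and with 1 CPM added to each Nos1 level, the log2 difference was -2.78. Nothing was added for Sema6d, so the 2 values are not on the same scale. This Nos1 measure was chosen after seeing the data. Nos1 shares 2.40% of its exon bases with an antisense gene, Gm26995, and as the strand setting of the counting is not given in the sources used here, reads of both there cannot be told apart.

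**Figure D3:**
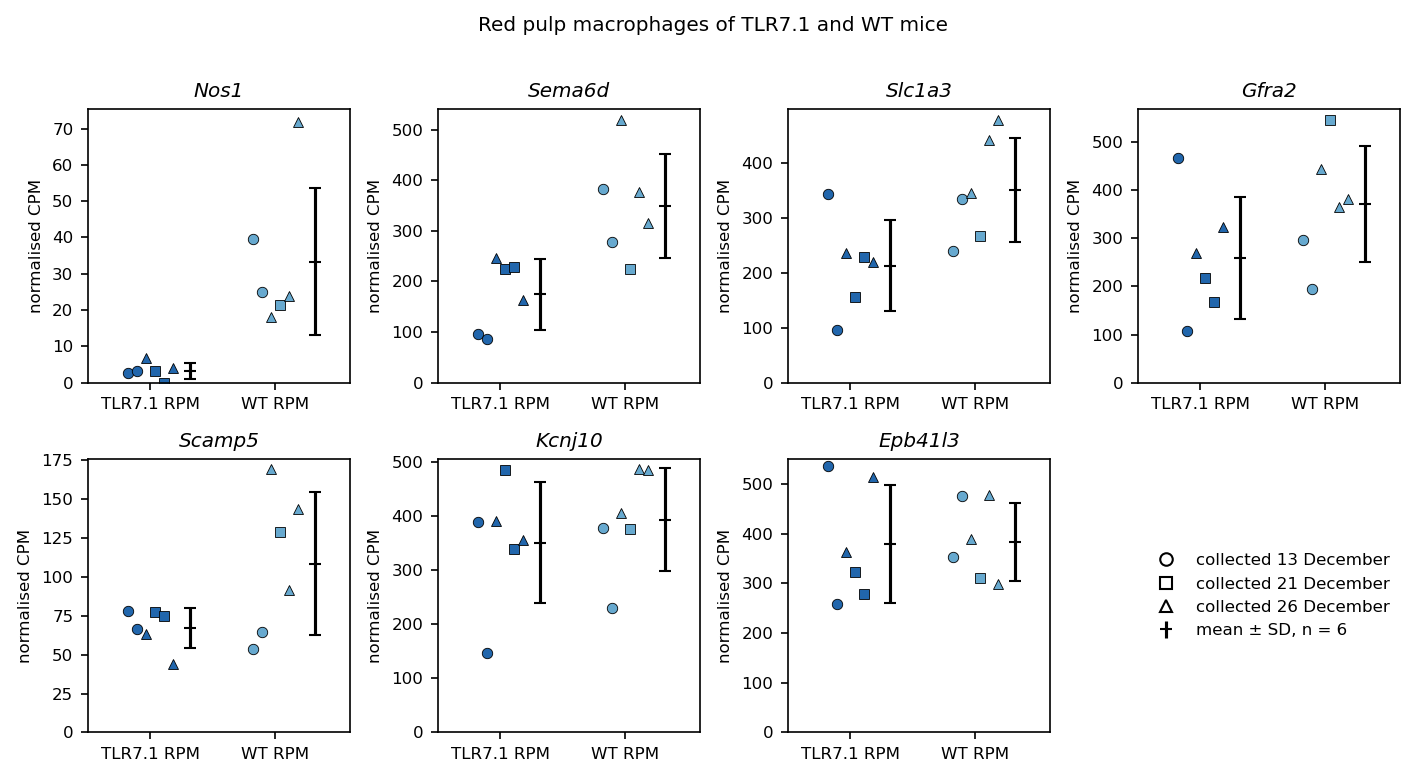
Level in CPM of 7 genes in TLR7.1 RPM and WT RPM, with the symbol giving the collection date and the bar the mean ± SD of 6 libraries. Nos1 shows no overlap between genotypes, Sema6d overlaps in 2 TLR7.1 libraries, and Kcnj10 and Epb41l3 cover much the same range in both.

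Negr1 and Gria3 followed another order, with their highest levels in iHPC. Negr1, the IgLON adhesion molecule, had a lowest, median and highest level of 83.4, 152 and 188 CPM in TLR7.1 iHPC. Of the other 24 libraries 19 held 0 counts, including all 6 of TLR7.1 Mono. The highest of those 24 was the TLR7.1 RPM library of mouse 24068, at 52.1 CPM from 20 counts, and the next was a WT RPM library at 7.20 CPM. Negr1 was at least 451-fold higher by pooled level in TLR7.1 iHPC than in TLR7.1 Mono. Against TLR7.1 RPM it was 31.3-fold higher (95% counting interval 20.3 to 50.8), a value that library 24068 sets, since the log2 difference was 4.49 with it and 8.63 without that mouse.

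Gria3, the AMPA receptor subunit, had 32.9, 75.9 and 137 CPM as lowest, median and highest level in TLR7.1 iHPC, 0, 0 and 3.99 CPM in TLR7.1 RPM, and 9.26, 29.3 and 35.0 CPM in TLR7.1 Mono. It was 373-fold higher by pooled level in TLR7.1 iHPC than in TLR7.1 RPM, where 1 count was found, with a 95% counting interval of 66.6 to 14760. All iHPC libraries lay above all TLR7.1 RPM libraries for both Negr1 and Gria3, as did 6.07% of all genes. Against TLR7.1 Mono the Gria3 ratio was 3.32 (2.84 to 3.90) and the libraries overlapped, the lowest iHPC library at 32.9 CPM lying under the highest Mono library at 35.0 CPM. Gria3 was thus the 1 gene of the 9 with reads in every Mono library, at 0.654, 9.496 and 11.9 CPM as lowest, median and highest level in WT Mono. All TLR7.1 RPM libraries lay below all TLR7.1 Mono libraries for Gria3, as did 14.6% of all genes, and the pooled level was 112-fold lower in TLR7.1 RPM (19.9 to 4450). In WT RPM 1 library, of mouse 24117, held 10 Gria3 counts and the other 5 none, and the pooled level was 2.64-fold lower than in WT Mono (1.35 to 5.75), with a log2 difference of -1.71 with that mouse and -6.20 without it. Between genotypes in RPM neither gene passed the test, at 21 Negr1 counts in TLR7.1 RPM against 7 in WT RPM (adjusted p = 0.402) and 1 Gria3 count in TLR7.1 RPM against 10 in WT RPM (adjusted p = 0.184).

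In monocytes only Kcnj10, at 6 counts, and Gria3 had 4 or more counts over the 12 libraries, and neither passed the test between genotypes, against 2.10% of all genes. Gria3 averaged 24.9 ± 10.0 CPM in TLR7.1 Mono and 7.35 ± 4.66 CPM in WT Mono (SD, n = 6 each). The log2 difference was 1.75 ± 0.55 with an adjusted p of 0.108 in edgeR, where the unadjusted p was 0.00309. A fit to the 12 Mono libraries alone gave 1.76 with an adjusted p of 0.0259. Over the other alternatives the adjusted p did not pass, and with each mouse left out in turn it ran from 0.0885 to 0.280. Mean levels were higher in TLR7.1 Mono on each date, at 19.1 CPM against 5.46 CPM in WT Mono on 13 December, 25.4 CPM against 10.0 CPM in WT Mono on 21 December and 30.2 CPM against 7.72 CPM in WT Mono on 26 December. Neutrophil markers summed to 116 to 1585 CPM in TLR7.1 Mono, against 1.55 to 7.85 CPM in WT Mono, and dendritic cell markers to 76.3 to 433 CPM in TLR7.1 Mono, against 307 to 586 CPM in WT Mono. Their part in the Gria3 values was not tested. The difference between the genotype effects in RPM and in Mono was called for 0 of the 9 genes, where 0.689% of all genes were called in edgeR. For genes other than Gria3 this test could not decide, since their Mono counts were at or near 0. Kcnj10 had 4 counts over TLR7.1 Mono and 2 over WT Mono. For Gria3 the RPM counts were low, at 1 over TLR7.1 RPM and 10 over WT RPM. Gfra2 and Slc1a3 had 0 counts in both Mono groups, so their effect there could not be estimated. The unadjusted p of this difference in edgeR was under 0.05 for Gria3, at 0.00236, and Scamp5, at 0.0260, and DESeq2 also called 0. The Scamp5 value rests on 3 counts in TLR7.1 Mono and 0 in WT Mono.

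Markers of basophils and mast cells stood beside Negr1 and Gria3 in iHPC. All 9 had counts there and summed to a median of 3185 CPM, led by Prss34, a basophil protease, while they summed to at most 23.4 CPM in any TLR7.1 RPM library and at most 14.0 CPM in any TLR7.1 Mono library. Mouse 24261 was apart, with a sum of 131 CPM and no count of Prss34 or of Cpa3, the mast cell carboxypeptidase. Its iHPC library had 143 CPM of Negr1, from 155 counts, and 78.7 CPM of Gria3, from 85 counts, both within the range of the other 5 libraries. The 5 others summed to 2837 to 5008 CPM of these markers, with Negr1 at 83.4 to 188 CPM and Gria3 at 32.9 to 137 CPM. Other lists were also higher in iHPC. Ly6C-low monocyte markers, led by Cd300e, summed to 2064 to 2750 CPM in TLR7.1 iHPC, against 716 to 892 CPM in TLR7.1 RPM and 674 to 1248 CPM in TLR7.1 Mono. Platelet and megakaryocyte markers summed to 143 to 246.5 CPM in TLR7.1 iHPC, against 12.0 to 112 CPM in TLR7.1 RPM and 0 to 16.3 CPM in TLR7.1 Mono. Their part in the Negr1 and Gria3 levels was not tested.

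**Figure D4:**
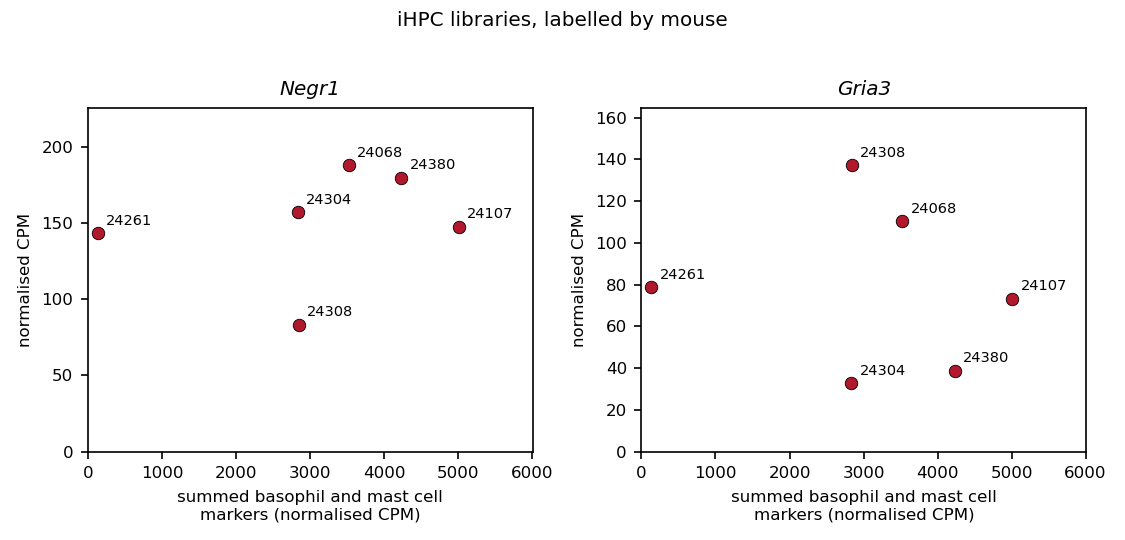
Level of Negr1 and of Gria3 in the 6 TLR7.1 iHPC libraries, in CPM, against the summed level of 9 basophil and mast cell markers. Mouse 24261, at 131 CPM of markers, has 143 CPM of Negr1 and 78.7 CPM of Gria3.

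The families and partners of the 9 genes were examined next, as 9 lists with 157 measured genes, of which 46 passed the filter. Of the 46, 10 were higher and 12 lower in TLR7.1 iHPC than in TLR7.1 RPM, 47.8% in all, where 27.1% of all genes were called. Against TLR7.1 Mono, 12 were higher and 12 lower in TLR7.1 iHPC, 52.2% beside 38.7% of all genes. In TLR7.1 RPM minus TLR7.1 Mono 19 were higher and 13 lower, 69.6% beside 46.6%, and in WT RPM minus WT Mono 18 were higher and 13 lower, 67.4% beside 46.2%. The 3 comparisons within TLR7.1 mice share libraries. The lists were chosen with earlier results of these data known, so nothing is read from these shares. The median log2 difference of the 46 genes was -0.0956 in TLR7.1 iHPC minus TLR7.1 RPM, where that of all genes was -0.00475. In TLR7.1 iHPC minus TLR7.1 Mono it was -0.0311 beside 0.00471, in TLR7.1 RPM minus TLR7.1 Mono 0.199 beside -0.0325, and in WT RPM minus WT Mono 0.167 beside -0.0214.

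Kcnj10 had its known channel partner beside it. Kcnj16 encodes Kir5.1, which joins Kir4.1 in a mixed channel, and averaged 168 ± 110 CPM in TLR7.1 RPM and 0 CPM in TLR7.1 Mono (SD, n = 6 each). In WT mice it averaged 367 ± 139 CPM in RPM and 0.545 ± 1.34 CPM in Mono, a log2 difference of 9.07 ± 0.77 with an adjusted p of 8.56e-11. TLR7.1 iHPC had 3.46 ± 4.71 CPM, which was lower than TLR7.1 RPM by a log2 difference of -5.89 ± 0.68 (adjusted p = 1.00e-07). Kcnj9 was found in RPM alone, at 6.65 ± 4.15 CPM in TLR7.1 RPM and 24.2 ± 15.3 CPM in WT RPM, and at 0 counts in the other 3 groups. Kcnj2, a strong inward rectifier, ran differently. It averaged 74.6 ± 21.9 CPM in TLR7.1 iHPC, 14.0 ± 12.6 in TLR7.1 RPM, 4.06 ± 3.37 in TLR7.1 Mono, 47.3 ± 22.2 in WT RPM and 8.34 ± 6.06 in WT Mono. It was lower in TLR7.1 RPM than in WT RPM (log2 difference -1.82 ± 0.55, adjusted p = 0.0342) and higher in TLR7.1 iHPC than in TLR7.1 RPM (2.42 ± 0.54, adjusted p = 0.000801). Of the 15 measured genes of this list 8 were at 0 in all 30 libraries.

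For Sema6d, the receptor Plxna1 was also highest in RPM. It averaged 100.4 ± 40.5 CPM in TLR7.1 RPM and 2.02 ± 1.16 CPM in TLR7.1 Mono (SD, n = 6 each), a log2 difference of 5.47 ± 0.50 with an adjusted p of 7.60e-11. It was 10.9 ± 3.12 CPM in TLR7.1 iHPC, lower than TLR7.1 RPM by -3.14 ± 0.44 (adjusted p = 1.12e-06), and 166 ± 63.6 CPM in WT RPM. Sema6a, a relative of Sema6d, averaged 22.0 ± 19.5 CPM in TLR7.1 RPM and 34.3 ± 15.1 CPM in WT RPM and was at 0 in iHPC and both Mono groups. Plxnc1, the receptor of Sema7a, averaged 136 ± 22.7 CPM in TLR7.1 iHPC and 15.5 ± 14.6 CPM in TLR7.1 RPM (adjusted p = 1.18e-05). Trem2, a co-receptor through which Sema6d and Plxna1 can signal, averaged 129 ± 29.9 CPM in TLR7.1 Mono and 143 ± 33.7 CPM in WT Mono, was at 0 counts in all 12 RPM libraries and had 6 counts over TLR7.1 iHPC. Of 12 tested genes of the list, 4 were higher and 5 lower in iHPC than in TLR7.1 RPM, where 27.1% of all genes were called.

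Relatives of Epb41l3 were found in both iHPC and RPM. Cadm1, an adhesion molecule that band 4.1 proteins bind, averaged 852 ± 104 CPM in TLR7.1 iHPC, 436 ± 50.7 CPM in TLR7.1 RPM and 3.23 ± 3.64 CPM in TLR7.1 Mono, with 735 ± 117 CPM in WT RPM and 1.81 ± 2.45 CPM in WT Mono (SD, n = 6 each). Its log2 difference was 0.97 ± 0.28 in iHPC against RPM (adjusted p = 0.0101) and 7.95 ± 0.42 in iHPC against Mono (adjusted p = 1.43e-16). All 4 tested genes of the list, Cadm1, Epb41, Epb41l1 and Epb41l2, were higher in TLR7.1 iHPC, in TLR7.1 RPM and in WT RPM than in Mono of the same genotype, where 38.7%, 46.6% and 46.2% of all genes tested were called in either direction. Epb41, the red cell membrane protein 4.1, was 158 ± 52.7 CPM in TLR7.1 iHPC, 226 ± 75.5 CPM in TLR7.1 RPM and 30.6 ± 9.22 CPM in TLR7.1 Mono. Erythroid markers moved the same way, with sums of 970 to 3282 CPM in TLR7.1 iHPC, 2056 to 4581 CPM in TLR7.1 RPM and 26.1 to 337 CPM in TLR7.1 Mono, and their part in Epb41 was not tested.

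**Figure D5:**
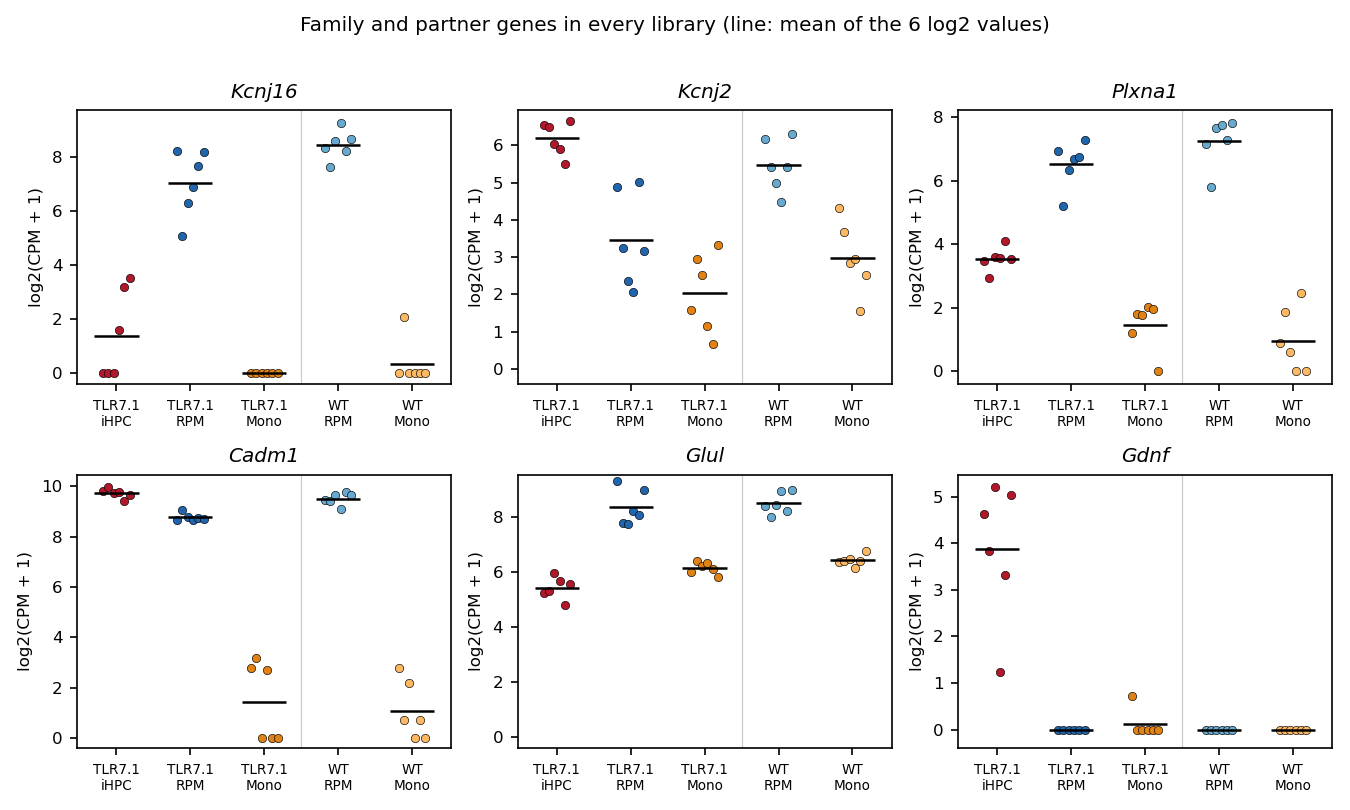
Level of 6 family and partner genes in each library, as log2 of CPM plus 1, in TLR7.1 iHPC, TLR7.1 RPM, TLR7.1 Mono, WT RPM and WT Mono. Points are single libraries and lines the mean of the 6 log2 values. Kcnj16 and Plxna1 are highest in RPM, Cadm1 is high in iHPC and RPM, and Gdnf has counts in all 6 iHPC libraries and 1 count elsewhere.

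Around Slc1a3, Glul, the glutamine synthetase that uses glutamate taken up by astrocytes, averaged 43.4 ± 12.2 CPM in TLR7.1 iHPC, 356 ± 172 CPM in TLR7.1 RPM and 70.0 ± 9.96 CPM in TLR7.1 Mono (SD, n = 6 each). It was lower in iHPC than in TLR7.1 RPM by a log2 difference of -3.02 ± 0.25 (adjusted p = 2.85e-11). Slc1a5, a neutral amino acid carrier of the Slc1a3 family, averaged 89.4 ± 48.7 CPM in TLR7.1 RPM and 35.6 ± 36.7 CPM in WT RPM. Its log2 difference was 1.82 ± 0.39 (adjusted p = 0.00300), and the difference between the genotype effects in RPM and in Mono was 2.18 ± 0.50 (adjusted p = 0.0270). The plasma cell markers above were higher in the same TLR7.1 RPM sorts, and their part in Slc1a5 was not tested.

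Receptor partners of Gfra2 were at or near 0. Ret, the kinase it signals with, had 0 counts in iHPC and in both RPM groups and 4 counts over WT Mono, and Nrtn, the neurturin gene, had at most 9 counts in any group. Gfra3 was at 0 in all 30 libraries and Gfra1 had 1 count. Gfra4 was found in RPM alone, at 32.5 ± 44.9 CPM in TLR7.1 RPM and 12.0 ± 9.57 CPM in WT RPM (SD, n = 6 each). Gdnf, the ligand that names the family, did not pass the filter, and like Ret and Nrtn it was chosen here after its values were seen. It had 101 counts over the 6 TLR7.1 iHPC libraries, with a lowest, median and highest level of 1.34, 18.5 and 36.1 CPM, against 0 counts in both RPM groups and WT Mono and 1 count over TLR7.1 Mono.

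Nos1 was the only nitric oxide synthase with counts in RPM, Nos2 and Nos3 both standing at 0 there and in iHPC. Slc7a2, an arginine transporter, followed RPM, with 34.4 ± 23.2 CPM in TLR7.1 RPM and 0.205 ± 0.503 CPM in TLR7.1 Mono, and 73.0 ± 24.6 CPM in WT RPM and 0.228 ± 0.37 CPM in WT Mono (SD, n = 6 each). The log2 difference was 7.76 ± 0.79 in WT mice (adjusted p = 7.21e-10). Gch1, which starts synthesis of the cofactor of nitric oxide synthases, was lower in RPM than in Mono, with log2 differences of -1.25 ± 0.42 in TLR7.1 mice (adjusted p = 0.0140) and -2.61 ± 0.47 in WT mice (adjusted p = 2.35e-05). Around Scamp5, of 11 tested vesicle membrane genes 1 was higher and 4 were lower in TLR7.1 RPM than in TLR7.1 Mono, where 46.6% of all genes tested were called, the higher one being Vamp8, a SNARE of endosomes and secretory granules (0.89 ± 0.17, adjusted p = 7.12e-05). Scamp2, a relative of Scamp5, averaged 124 ± 29.1 CPM in TLR7.1 iHPC, 141 ± 58.7 CPM in TLR7.1 RPM and 265 ± 13.0 CPM in TLR7.1 Mono, and was lower in both than in Mono (adjusted p = 5.01e-05 and 0.000352). Vamp1, a vesicle SNARE, averaged 3.41 ± 3.51 CPM in TLR7.1 RPM and 16.1 ± 16.8 CPM in WT RPM (log2 difference -2.25 ± 0.64, adjusted p = 0.0255), and is named because so few were called.

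With Slc1a5, Kcnj2 and Vamp1, 1 family gene was higher and 2 were lower in TLR7.1 RPM than in WT RPM, 6.52% of 46 beside 8.25% of all genes. Slc1a5 was called with each of the 12 mice left out in turn (adjusted p = 0.000369 to 0.0157 in edgeR). The call of Vamp1 was lost without mouse 24107, 24261, 24304, 24415 or 24416 (adjusted p = 0.0096 to 0.134 over the 12 fits), and that of Kcnj2 without mouse 24028, 24107, 24261, 24304, 24380 or 24416 (adjusted p = 0.0105 to 0.0897) and with collection date as a covariate (adjusted p = 0.0657). With the 12 RPM libraries alone Slc1a5 and Kcnj2 were not called (adjusted p = 0.185 and 0.166 in edgeR) and Vamp1 was not tested. In Mono 0 of 46 were called between genotypes in edgeR, beside 2.1% of all genes. Of the 46, 0 had an unadjusted p under 0.05, and the fit with DESeq2 also called 0. Negr1 and Gria3 were close to alone in their families. Of the other IgLON genes Lsamp, Ntm and Opcml were at 0 in all 30 libraries and Iglon5 had 2 counts. Gria2 was at 0, Gria1 and Gria4 had 1 count each, and 20 of 36 genes of the glutamate receptor list were at 0 in every library. Grm6, a metabotropic receptor of retinal bipolar cells, had 38 counts over 4 of the 6 TLR7.1 iHPC libraries and 0 in all other groups, and was also chosen after its values were seen.

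General markers of neurons were mostly missing, while those of glia and Schwann cells were found in part. Of 19 neuronal markers 15 were at 0 in TLR7.1 iHPC, 14 in TLR7.1 RPM, 15 in TLR7.1 Mono, 16 in WT RPM and 16 in WT Mono, and Snap25, Syt1, Map2, Nefl, Th, Dbh and Npy were at 0 in all 5 groups. Their sum was at most 44.7 CPM in any library, in RPM led by Syn1, a synaptic vesicle protein, at 12.6 CPM in TLR7.1 RPM and 12.7 CPM in WT RPM. Of 15 glial and Schwann cell markers 8 or 9 were at 0 in each group, among them Sox10, Mog, Aqp4, S100b, Foxd3 and Cdh19 in all 5. The 15 summed to 195 to 278 CPM in TLR7.1 iHPC, 20.8 to 155 in TLR7.1 RPM and 135 to 211.5 in TLR7.1 Mono. In WT mice they summed to 30.6 to 86.1 CPM in RPM and 214 to 386 CPM in Mono. Mbp, which also has transcripts outside myelin-forming cells, led that sum in each group except WT RPM, where Aldh1l1 did at 24.05 CPM. Mbp stood at 176 CPM in TLR7.1 iHPC, 32.7 CPM in TLR7.1 RPM, 156 CPM in TLR7.1 Mono, 13.7 CPM in WT RPM and 279 CPM in WT Mono. Markers of endothelium and stroma summed to at most 16.9 CPM in any library.

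Across the 30 libraries the 6 RPM genes ran together, with a median Pearson r of 0.945 over their 15 pairs on log2 of CPM plus 1 (0.875 to 0.993). The libraries fall into populations, and this value describes that. Within the 6 TLR7.1 RPM libraries the median was 0.221 (-0.390 to 0.941), and within the 6 WT RPM libraries 0.177 (-0.591 to 0.763). Among the 3 nearest genes of each, Slc1a3, Epb41l3 and Sema6d named one another and Paqr9, with r of 0.981 to 0.993. Nearest to Gfra2 were Dmpk (0.991), Akr1b7 (0.989) and Vstm4 (0.987), and to Kcnj10 Plpp3 (0.994), Pcolce2 (0.991) and Slc45a3 (0.982). Scamp5 ran most like Vstm4 (0.986), Gfra2 (0.985) and Timd4, a phosphatidylserine receptor (0.984). Nos1 was nearest to Ptgis, the prostacyclin synthase (0.920), Tspan15 (0.911) and Tenm4 (0.884). Negr1 was nearest to Cd200r3 (0.945), Slc5a5, the sodium iodide symporter (0.943), and Fnbp1l (0.920), and Gria3 to Ryr1, a calcium release channel (0.859), Ssr3 (0.856) and Sh3pxd2b (0.839). Cd200r3 is among the basophil and mast cell markers above and had counts in all 6 iHPC libraries.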

How the data were processed

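Per the labels' protocols, cDNA from 500 sorted cells was made with the SMART-Seq v4 kit and libraries with Nextera XT. Per the submitters' processing notes, the build was NCBIM37 and the tools included SAMtools, FastQC, HTSeq 0.4.1, TopHat, Bowtie, Picard and CASAVA 1.8.2. The sources used here do not give annotation release, strand setting or read filters. The deposited table holds the authors' raw read counts per Ensembl identifier, with no normalization. Symbols and exon lengths came from GENCODE M21 on GRCm38, so gene coordinates are not printed.

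The genes, their family lists and the marker lists were chosen with earlier results of these data known. Genes were kept by filterByExpr, scaled by TMM and fitted with edgeR 4.0.16 (quasi-likelihood, robust, 1 mean per group, all 30 libraries, R 4.3.3, limma 3.58.1). P values are two-sided and adjusted by Benjamini-Hochberg over 11030 genes, and a gene was called under 0.05. The fit was tested on simulated data. No p is given for the 9 genes between populations, nor for those of the 9 that rank among the 10 largest changes of a genotype comparison. Pooled folds compare summed counts over summed library sizes, with a floor of 3 counts over a group at 0 and exact 95% intervals that cover counting error. Each replicate is 1 mouse, and the populations of a genotype come from the same mice. Deviations of libraries of the same mouse correlated by -0.0795 to 0.196 over 24 pairs, and 2 pairs exceeded 0.1. Alternatives used DESeq2 1.42.0, other scaling, no filter, mouse as a block, collection date, depth and each mouse left out. Named family genes come from up to 4 called genes per list and comparison, by size of change, with at least 20 CPM in the higher group, beside absent relatives; others are said to be chosen after their values were seen. Of each marker list, the highest gene and genes at 0 are named. Named genes of like pattern are the 3 with the highest r.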

Additional observations from a re-analysis of the deposited data

Results flagged for a closer look

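In 2 groups 1 library stood apart from the other 5, by a gap to its nearest neighbour that exceeded Dixon's 95% critical share of the group's range. Negr1 was 52.1 CPM in the TLR7.1 RPM library of mouse 24068, from 20 counts, where the next library had 1.07 CPM. The basophil and mast cell markers summed to 23.4 CPM in that library, and to at most 22.5 CPM in the other TLR7.1 RPM libraries. Gria3 was 6.43 CPM in the WT RPM library of mouse 24117, from 10 counts, where the other 5 had 0. In all 22 gene and group pairs whose highest library held at least 10 counts were examined. Chance gives about 1 such gap in 20 groups of normally distributed values. Both flagged groups held mostly libraries at 0 counts, so that rate does not apply to them.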

How the results depend on the processing

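The number of family genes called in TLR7.1 RPM minus WT RPM was 3, and it was 6 with DESeq2, 5 with no filter on low counts, 7 without libraries under 300000 counts, 1 with the 12 RPM libraries alone, and 1 to 8 with each mouse left out. Nos1 was left out of the count of called genes for the reason given above. Of the other 8 genes, 1 was called in TLR7.1 RPM minus WT RPM, and 0 to 1 with each mouse left out. With the 12 RPM libraries alone 0 were called (Sema6d -0.99, adjusted p = 0.0622 in edgeR). Sema6d had -0.79 relative to the RPM markers and -0.86 without the TLR7.1 RPM library of mouse 24107 (adjusted p = 0.0654), both chosen after seeing the data.

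Limma-voom with mouse as a random replicate block, a change of method and block together, had a within-mouse correlation of 0.0474. In TLR7.1 RPM minus WT RPM it called 7 family genes and 2 of the 8 genes counted without Nos1. Slc1a3 joined at -0.95 (adjusted p = 0.00216 by limma-voom). Limma-voom reversed Negr1 to -0.52. Between populations edgeR's own fit with mouse as a fixed replicate block called 21, 25, 33 and 32 family genes in place of 22, 24, 32 and 31, and changed no count by over 1.5 times.

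In TLR7.1 RPM minus WT RPM Negr1 ran from -2.49, without mouse 24068, to 2.72, with each mouse left out in turn, Epb41l3 from -0.17 to 0.054, Kcnj10 from -0.28 to 0.0027, and Epb41l3 was 0.0045 with collection date as a covariate. Fits to the compared libraries alone, which test fewer genes, gave 20 family genes in TLR7.1 RPM minus TLR7.1 Mono in place of 32, 3 of the 9 genes at least 2-fold apart in iHPC minus Mono in place of 9, and 1, Gria3, called between genotypes in Mono in place of 0. Without mouse 24117 Gria3 was -6.20 in WT RPM minus WT Mono in place of -1.71. The cause was not tested. The shallowest WT RPM library held 95002 counts, which limits low levels such as that of Nos1.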
